A study of Mus musculus with 18 samples.

Results

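Control iLS cells of day 14 were compared with control iLS cells of day 6, to see how the transcripts of the cells without a fusion differed between the 2 days of the series. The samples were CD45.2-positive cells sorted from bone marrow of C57BL/6 mice, and the labels do not spell out iLS, do not say what the days are counted from and give no age. The control cells of day 14 (3 libraries, named Cont in the table) and of day 6 (3 libraries, named Mock) are given no fusion by the labels, and whether both received the same empty vector is not stated. The genotype of all groups is given as CD45.2(+). The same 2 days were also sampled for cells with BRD9-NUTM1 (BN1) and for cells with AFF1-NUTM1 (AFFN1), with 3 libraries in each group, so that 6 of the 18 libraries belong to the comparison of control cells. Whether the libraries of a group came from separate animals or cultures is not stated. The p-values weigh a day difference against the spread among libraries within groups, estimated over all 18, and that spread may be technical.

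The libraries of the 2 days also belong to differently named sets of samples, and day and experiment cannot be told apart in any result below. The sex of the cells differed as well: the 9 libraries of day 14 had 3419 to 7602 reads of Xist, the transcript that silences an X chromosome in female cells, and 0 to 1 read of the Y gene Ddx3y, whereas the 9 libraries of day 6 had 1 to 5 reads of Xist and 1425 to 2291 reads of Ddx3y. Genes on X and Y and mitochondrial genes were therefore set aside, together with gene models that had 0 reads in all 9 libraries of 1 day. Of 32285 genes in the table, 15790 were autosomal with a read on both days, and 12127 of these had enough reads to be tested. Another 440 genes with enough reads were set aside, of which 365 were on X, 6 on Y, 13 were mitochondrial and 47 were autosomal with 0 reads on 1 day. Mia3 and Zfp131, for example, had 0 reads in every day 14 library and between 804 and 1417 reads in each day 6 library. A second gene model of Nnt had 445 to 1772 reads in each day 14 library and 0 in each day 6 library, while the other Nnt model had reads on both days.

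Library totals, in units of 1000000 counts, were 18.0 to 18.4 on day 14 and 14.2 to 17.7 on day 6 for control cells. Mitochondrial transcripts took 5.25 to 8.32% of the counts on day 14 and 2.31 to 2.66% on day 6, and the 20 most abundant genes took 12.4 to 16.1% on day 14 and 6.80 to 7.39% on day 6. On the first principal component of the 6 control libraries, which held 67.8% of the variance, the days were apart. On the second, which held 16.8%, day 14 library 1 stood apart from the other 2 day 14 libraries (scores of 39.55 against -19.46 and -16.72). Results that rest on this library are given with and without it. Ptprc, which encodes CD45, had 188, 296 and 206 CPM in the day 14 libraries, against 267, 272 and 325 CPM in the day 6 libraries, so the sorted antigen was expressed on both days. Cd79a, which encodes a signalling protein of the B lineage, was abundant in all 6 libraries, with values given below. Ms4a1 and Fcer2a, markers of mature B cells, had too few reads for the test. Values are counts per 1000000 (CPM) scaled by TMM (trimmed mean of M-values), and log2 fold changes and adjusted p-values are from edgeR's quasi-likelihood test with Benjamini-Hochberg adjustment over the whole table.

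B cells develop in the bone marrow from lymphoid progenitors that carry the receptor kinases Flt3 and Kit. The transcription factors Tcf3, Ebf1 and Pax5 commit these cells to the lineage, while Rag1 and Rag2 cut the immunoglobulin genes for V(D)J recombination. A heavy chain paired with the surrogate light chain then forms the pre-B cell receptor, whose signal drives a burst of division under interleukin 7, and light chain rearrangement and exit from the marrow follow.

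In all, 5275 of 12127 genes (43.5%) were called between day 14 and day 6 control cells at an adjusted p under 0.05, of which 2707 (22.3%) were higher on day 14 and 2568 (21.2%) were lower. By more than 2-fold, 921 genes (7.59%) were higher and 1098 (9.05%) were lower. The libraries of the 2 days did not overlap for 50.8% of tested genes. Those shares are the background for every count of genes given here. The scaling bears on the directions, because the median of all tested genes was -0.03 with TMM and -0.36 when libraries were scaled by their totals alone. With totals, 6355 genes were called and 22.1% of them were higher on day 14, against 51.3% with TMM. Of the 12127 tested genes 1406 were then higher and 4949 lower, which is the background for the counts with totals. Median log2 fold changes also followed base composition, from -0.25 in the quartile of genes with the lowest GC content to 0.23 in the quartile with the highest. Whether GC content had a part in any one gene's value was not tested. Among the 105 genes named by rule, a correction for GC content and length ended the calls of Rag2, Cd74, Crlf2, Shmt2 and Nhp2, gained that of Ccnd2 and turned the direction of Il7r, which was not called.

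**Figure D1:**
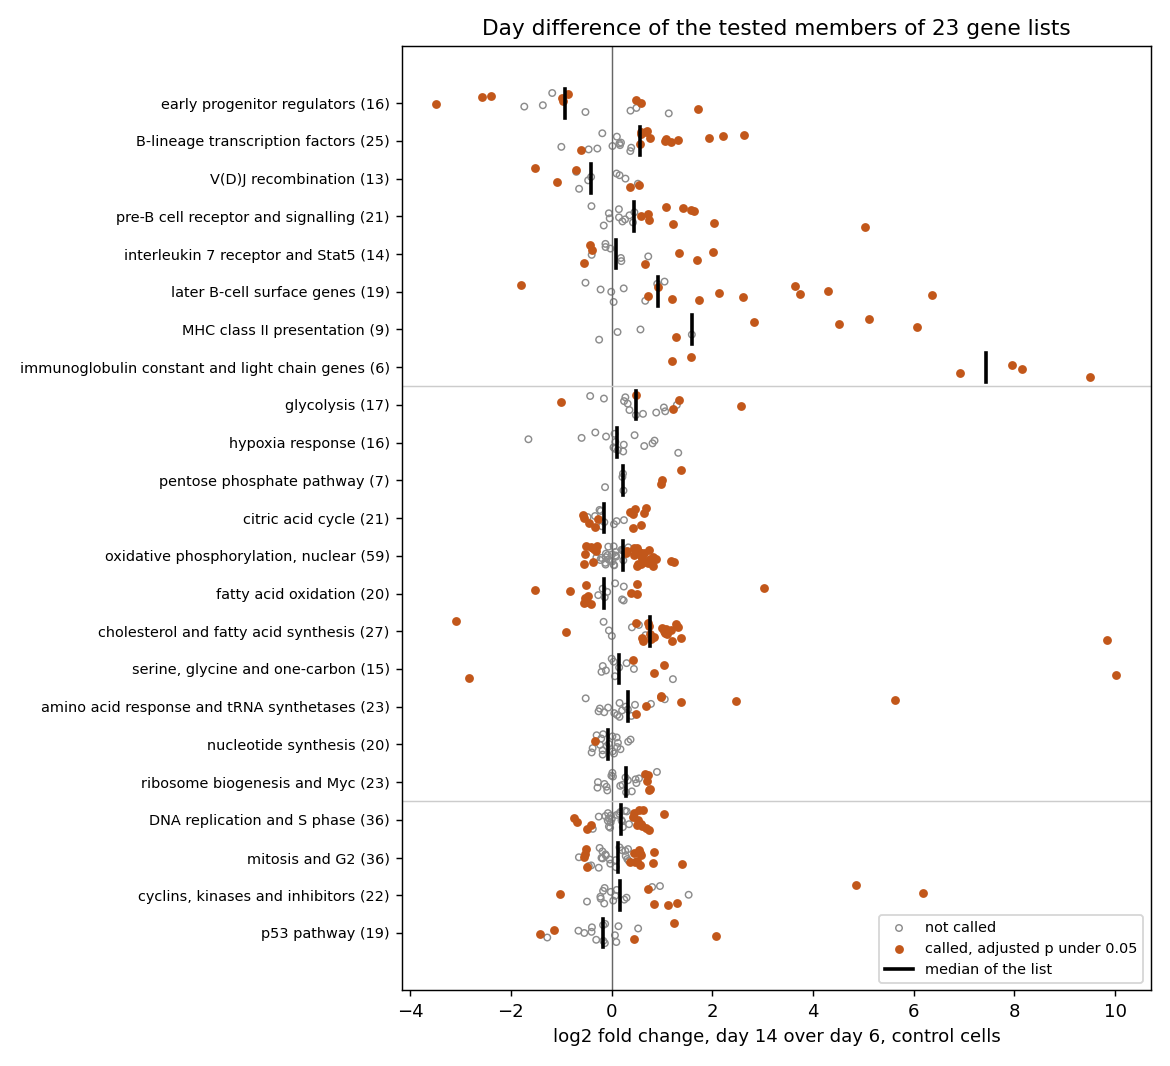
Each row is a gene list, with its number of tested genes in brackets, and each point is the log2 fold change of a member, day 14 over day 6 control cells. Filled points were called by edgeR at an adjusted p under 0.05. The bars are the list medians, which lie between -0.92 for early progenitor regulators and 7.44 for immunoglobulin constant and light chain genes. The median of 7.44 includes Iglc1, Iglc2 and Iglc3, which had 0 reads in the day 6 control libraries. With the 6 control libraries alone these 3 had no test and the median was 1.59.

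The lists held 617 distinct genes, in 23 lists on the B lineage, metabolism and the cell cycle and 8 of markers, stress and interferon. Transcription factors of the B lineage that were called were higher on day 14 with 1 exception. Of 25 tested genes, 13 rose and 1 fell, and 7 rose by more than 2-fold, with a median log2 fold change of 0.56 beside -0.03 over all tested genes. With totals the median was 0.23, and 8 genes were higher and 3 lower. Ikzf3, the Aiolos factor of pre-B and later stages, had 22.7, 68.7 and 74.5 CPM in the day 14 libraries, against 5.54, 6.3 and 14.9 CPM in the day 6 libraries. The groups did not overlap, and day 14 library 1 was the lowest of its day (log2 fold change 2.63, SE 0.46, adjusted p = 0.000387), which was 3.22 when day 6 library 3 was left out. Irf4, an interferon regulatory factor that acts at light chain rearrangement, had 102, 139 and 143 CPM in the day 14 libraries, against 26.2, 19.8 and 37.1 CPM in the day 6 libraries. All 3 day 14 libraries lay above all 3 day 6 libraries, with a 4.61-fold higher mean (log2 fold change 2.21, SE 0.26, adjusted p = 1.15e-05). Spib, an Ets factor of B cells, and Pou2af1, a coactivator of octamer-binding factors, were 3.83- and 2.48-fold higher (adjusted p = 0.00175 and 0.000522).

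The factors that commit cells to the lineage changed less. Pax5 had 861, 1019 and 762 CPM in the day 14 libraries, against 619, 584 and 555 CPM in the day 6 libraries, without overlap (log2 fold change 0.59, adjusted p = 0.00225). Ebf1 had 589, 652 and 886 CPM in the day 14 libraries, against 416, 377 and 537 CPM in the day 6 libraries, also without overlap (log2 fold change 0.68, adjusted p = 0.0254). The Ebf1 call was lost without day 14 library 3 (adjusted p = 0.128), day 6 library 1 (0.0773) or day 6 library 2 (0.0952), and both genes missed the threshold when libraries were scaled by totals, at log2 fold changes of 0.33 for Ebf1 and 0.26 for Pax5. Bach2, a repressor of plasma cell differentiation, Lef1, a factor of Wnt signalling in pro-B cells, and Pou2f2, an octamer-binding factor, rose with log2 fold changes of 1.05, 1.18 and 1.08. Mef2c, a MADS-box factor of B and myeloid cells, was the member that fell, at 142, 195 and 139 CPM on day 14 against 234, 220 and 273 CPM on day 6 (log2 fold change -0.61, adjusted p = 0.0016).

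**Figure D2:**
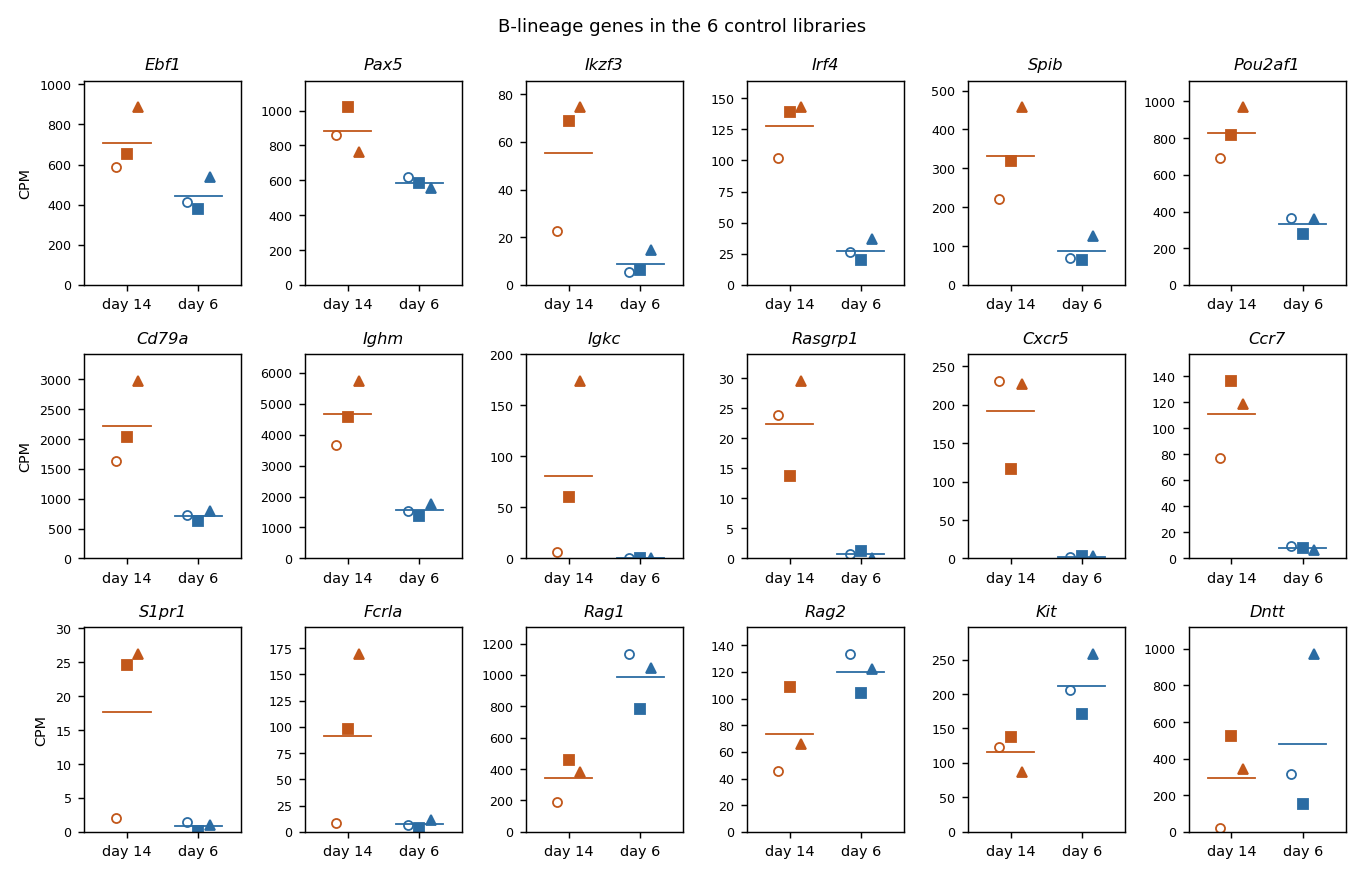
Levels in CPM (vertical axes, from 0) of 18 B-lineage genes in control cells, with day 14 on the left and day 6 on the right of each panel. Circles, squares and triangles are libraries 1, 2 and 3, which the labels do not pair between days, and lines are means. Ikzf3, Irf4, Cd79a, Ighm and Cxcr5 are higher in every day 14 library, whereas Fcrla and S1pr1 are near the day 6 level in day 14 library 1.

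Among genes of the pre-B cell receptor and its signalling, 10 of 21 rose and none fell, 7 of them by more than 2-fold, with a median log2 fold change of 0.45 (0.11 with totals, where 6 rose and 3 fell). With the GC and length correction 10 rose and 2 fell, and 6 rose when either day 14 library 3 or day 6 library 2 was left out. Ighm, the heavy chain of IgM, had 3657, 4584 and 5746 CPM in the day 14 libraries, against 1546, 1378 and 1748 CPM in the day 6 libraries. Cd79a, the signalling partner of the receptor, had 1629.9, 2035 and 2979 CPM in the day 14 libraries, against 731, 620.3 and 788 CPM in the day 6 libraries. Their means were 2.99- and 3.11-fold higher on day 14, with no overlap (log2 fold changes 1.58, SE 0.18, and 1.63, SE 0.24; adjusted p = 5.45e-06 and 6.76e-05). Rasgrp1, an exchange factor that activates Ras after receptor signals, had 23.9, 13.8 and 29.6 CPM in the day 14 libraries, against 0.728, 1.22 and 0.15 CPM in the day 6 libraries. It was 32.8-fold higher, and without day 6 library 2, its highest day 6 value, the log2 fold change was 5.68 in place of 5.04 (adjusted p = 1.35e-05 over all libraries). Prkcb, a protein kinase C of B-cell receptor signalling, was 4.1-fold higher (adjusted p = 0.00281).

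The surrogate light chain did not change as 1 unit. Vpreb2 rose, at 419, 297 and 488 CPM on day 14 against 197, 190 and 186 CPM on day 6 (adjusted p = 0.00079), while its near-identical copy Vpreb1 was not called (log2 fold change -0.40). How the counting split reads between the 2 copies is not given, so each value is uncertain. Igll1, their partner, was not called either (log2 fold change 0.15), and Vpreb3, which assembles with the light chain, rose by 1.41. Cd79b, the other signalling partner, was not called (log2 fold change 0.45).

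Light chain transcripts were close to absent on day 6. Igkc, the kappa constant gene, had 6.59, 60.1 and 174 CPM in the day 14 libraries, against 0.28, 0.193 and 0.451 CPM in the day 6 libraries. The day 14 libraries were far apart from one another, library 1 being the lowest, but each of them lay above every day 6 library (log2 fold change 7.95, SE 1.56, adjusted p = 0.00122). Without day 14 library 3 its log2 fold change was 6.69. The lambda constant genes Iglc1, Iglc2 and Iglc3 had 97, 42 and 245 reads over the day 14 libraries and 0 over the day 6 libraries, at least 36.0-, 15.6- and 90.8-fold higher against a floor of 3 reads over the day 6 libraries. Leaving out day 14 library 3, which held most of the Iglc1 and Iglc3 reads, lowered their fitted log2 fold changes to 6.72 and 7.74, and leaving out day 14 library 1 raised that of Iglc2 to 7.52. Iglc2 and Iglc3 are near-identical copies and their separate values are uncertain. How the counting split reads among the 3 genes is not given. Iglc2 had 0 reads in day 14 library 1 too, so its groups overlapped. Ighd, the heavy chain of IgD, rose by 1.19 on the log2 scale (adjusted p = 0.0047). All 6 tested immunoglobulin genes were thus higher on day 14 in the fit over 18 libraries. With the 6 control libraries alone Iglc1, Iglc2 and Iglc3 had no test, and the other 3 were called higher, with a median of 1.59 in place of 7.44. A larger number of cells of a stage and more RNA per cell cannot be told apart in bulk libraries.

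Surface genes of later B cells that were called were higher on day 14 with 1 exception. Of 19 tested, 10 rose and 1 fell, 8 by more than 2-fold upward, with a median log2 fold change of 0.92 (0.58 with totals). Cxcr5, the chemokine receptor that guides B cells into follicles, had 231, 116 and 228 CPM in the day 14 libraries, against 1.23, 3.21 and 2.6 CPM in the day 6 libraries. It lies at chr9:44511787-44561877, minus strand of mm10. No day 14 library came near the day 6 range, and the mean was 81.9-fold higher (log2 fold change 6.36, SE 0.60, adjusted p = 3.05e-06). Cxcr5 lies opposite to Bcl9l, and its reads cannot be told apart from those of Bcl9l if the counting ignored strand. The same holds for Csf1r and Hmgxb3, Dclre1c and Suv39h2, Ciita and Dexi, Pfkm and Senp1, Acadvl and Dvl2, Nhp2 and Rmnd5b, Nusap1 and Oip5, Ube2c and Tnnc2, Ccnd3 and Bysl, and Ccnd1 and LTO1. Ccr7, a receptor for homing to lymph nodes, had 77.3, 137 and 119 CPM in the day 14 libraries, against 9.85, 8.16 and 6.86 CPM in the day 6 libraries (log2 fold change 3.74, SE 0.23, adjusted p = 9.96e-09). It too was without overlap.

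S1pr1, the sphingosine phosphate receptor for exit from the marrow, had 2.12, 24.6 and 26.2 CPM in the day 14 libraries, against 1.4, 0.129 and 1.05 CPM in the day 6 libraries. Fcrla, an Fc receptor-like protein of B cells, had 8.28, 97.6 and 169 CPM in the day 14 libraries, against 6.38, 4.11 and 11.5 CPM in the day 6 libraries. For both genes day 14 library 1 was close to the day 6 libraries and the other 2 day 14 libraries were far above, and the groups overlapped for Fcrla but not for S1pr1 (adjusted p = 0.00129 for S1pr1 and 0.00806 for Fcrla). With the 6 control libraries alone Fcrla was not called (adjusted p = 0.0564). Without day 14 library 3 the log2 fold change of Fcrla was 2.84 in place of 3.63. Cd24a, a surface protein of immature B cells, Cd38, an ectoenzyme, and Tnfrsf13c, the receptor for the survival factor BAFF, rose by 1.73, 2.62 and 2.13 on the log2 scale. Cd40, a costimulatory receptor, fell by 1.80 but had no more than 1.62 CPM in any library. Cd22 and Cd72, inhibitory receptors of B cells, had log2 fold changes of 1.05 and 0.91 that were not called. Leaving out day 14 library 1, the list had 12 genes higher and 1 lower. It had 8 higher and 0 lower without day 14 library 2, day 14 library 3, day 6 library 1 or day 6 library 2. Without day 6 library 3 it had 10 and 0, and with the 6 control libraries alone 7 and 1.

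Of 9 tested genes of MHC class II presentation, 5 rose and none fell, with a median of 1.59, and 3 rose when day 14 library 3 was left out. The count rests on the fit over 18 libraries, since with the 6 control libraries alone H2-Ab1, H2-Aa and Ciita had no test and 1 gene rose, with a median of 0.93. Except for Cd74 and H2-Oa these were near the detection limit. H2-Ab1, a class II beta chain, had 23 reads over the day 14 libraries and 0 over the day 6 libraries, at least 8.53-fold higher. H2-Aa, the alpha chain, had 28 reads on day 14 and 1 on day 6, a ratio of 31.1 (95% counting interval 5.15 to 1270). Ciita, the transactivator of the class II genes, had 43 reads on day 14 and 1 on day 6, a ratio of 47.8 (8.14 to 1930). The fitted log2 fold changes moved with single libraries, to 5.41 for H2-Ab1 without day 14 library 3, to 3.80 without day 14 library 2 and 6.32 without day 6 library 3 for H2-Aa, and to 6.97 for Ciita without day 6 library 2. Cd74, the invariant chain, had 607, 77.9 and 433 CPM in the day 14 libraries, against 32.7, 112 and 14.2 CPM in the day 6 libraries. The groups overlapped, and its call (adjusted p = 0.0407) was lost without day 14 library 1, day 14 library 3, day 6 library 1 or day 6 library 3, at adjusted p of 0.0764 to 0.123, and also with totals (0.0554), the GC and length correction (0.0645), no read filter (0.0693) or the 6 control libraries alone (0.0977). Without day 6 library 2 its log2 fold change was 3.99 in place of 2.82.

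The recombinase genes went the other way. Rag1 (mm10, chr2:101638282-101649501, minus strand) had 188, 459.9 and 383 CPM in the day 14 libraries, against 1133, 783 and 1042 CPM in the day 6 libraries. The groups did not overlap, and day 14 cells had 2.87-fold less (log2 fold change -1.52, SE 0.38, adjusted p = 0.00449). Rag2, its partner, had 45.8, 109 and 66.1 CPM in the day 14 libraries, against 133, 104 and 122 CPM in the day 6 libraries. Day 14 library 2 lay within the day 6 range, and the Rag2 call (log2 fold change -0.70, adjusted p = 0.043) was lost without day 14 library 1, day 14 library 3, day 6 library 1 or day 6 library 3, at adjusted p of 0.0888 to 0.161, with the GC and length correction (0.148), with the 6 control libraries alone (0.107) and with no read filter (0.0724). Rag1 and Rag2 overlap B230118H07Rik, on the same strand for Rag1 and on the opposite strand for Rag2. Dclre1c, the Artemis nuclease that opens hairpin ends, had log2 fold change -1.08 (adjusted p = 0.00103). Hmgb1 and Hmgb2, DNA-bending cofactors of the recombinase, rose by 0.56 and 0.37 on the log2 scale, and these were the other 2 calls among 13 tested genes (3 lower, 2 higher, median -0.41, and 5 lower and 0 higher with totals). With totals Hmgb1 had an adjusted p of 0.0993. Leaving out day 14 library 1, the count was 2 lower and 2 higher, with a median of -0.14, and without day 6 library 3 it was 2 lower and 1 higher, with a median of 0.04.

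Dntt, the terminal transferase that adds bases at the joints, had 18.8, 525 and 342 CPM in the day 14 libraries, against 316, 151 and 971 CPM in the day 6 libraries. Libraries of 1 day differed more than the days did, and it was not called (log2 fold change -0.70, adjusted p = 0.554, and 0.34 without day 6 library 3). The joining genes Xrcc4, Xrcc5, Xrcc6, Lig4, Prkdc and Nhej1, which every cell uses to repair broken DNA, were not called, with log2 fold changes between -0.46 and 0.52.

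Regulators of early progenitors were called in both directions, more of them lower. Of 16 tested genes 6 fell and 3 rose, with a median of -0.92. The count was 4 lower and 3 higher without day 14 library 2 or day 6 library 1, and 6 and 4 without day 14 library 1. It was 6 lower and 2 higher without day 14 library 3 or day 6 library 2, and 5 and 3 without day 6 library 3. Kit, the stem cell factor receptor, had 124, 137 and 86.2 CPM in the day 14 libraries, against 206, 171 and 258 CPM in the day 6 libraries. All day 14 libraries were below all day 6 libraries (log2 fold change -0.87, SE 0.21, adjusted p = 0.00288). Flt3, a receptor kinase of early progenitors, had 12, 7.86 and 23.6 CPM in the day 14 libraries, against 36, 32.5 and 29.6 CPM in the day 6 libraries. The groups did not overlap, yet Flt3 missed the threshold (log2 fold change -1.18, adjusted p = 0.0665) and passed it without day 14 library 3 (adjusted p = 0.0221), with totals (0.0147) and with the 6 control libraries alone (0.0446). Meis1, a cofactor of Hox proteins, had 0.423, 0.122 and 0.862 CPM in the day 14 libraries, against 3.64, 3.08 and 1.7 CPM in the day 6 libraries (log2 fold change -2.58, adjusted p = 0.00104, and -3.32 without day 14 library 3). The receptor Csf1r, of the myeloid lineage, was 11.2-fold lower (adjusted p = 0.00633), and without day 6 library 3 its log2 fold change was -2.71 in place of -3.48.

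Cd34, a surface protein of progenitors, was at or below 1.57 CPM in every library, and its fall (log2 fold change -2.38) lost its call without day 14 library 1, day 14 library 2 or day 6 library 1, while without day 14 library 3 it was -3.92. Gfi1b, a repressor used in the erythroid and megakaryocyte lineages, rose 3.29-fold, at 17.8, 45 and 29.3 CPM in the day 14 libraries, against 9.23, 6.23 and 12.4 CPM in the day 6 libraries. Sox4, a factor needed for pro-B cells, and Hhex, a homeobox factor, rose with log2 fold changes of 0.58 and 0.49, and with totals 1 gene of the list was higher and 7 were lower.

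Il7r, the receptor on which B progenitors depend for growth, had 161, 388 and 351 CPM in the day 14 libraries, against 298, 249 and 432 CPM in the day 6 libraries. The days overlapped and it was not called (log2 fold change -0.12, adjusted p = 0.757). Of the 14 tested genes of the interleukin 7 receptor and Stat5 pathway 4 rose and 3 fell, with a median of 0.08 (-0.26 with totals, where 1 rose and 4 fell). Single libraries moved this count, to 1 higher and 2 lower without day 14 library 1, 2 and 1 without day 14 library 3, 2 and 3 without day 6 library 1, and 1 and 1 without day 6 library 3. Socs2, Socs1 and Bcl2, genes induced through Stat5, were highest in day 14 library 1, at 697, 51.4 and 155 CPM. Bcl2, an inhibitor of cell death, had 155, 20.6 and 70.4 CPM in the day 14 libraries, against 17.3, 36.7 and 21.7 CPM in the day 6 libraries. Without day 14 library 1 their log2 fold changes were 0.99, 1.19 and 0.85 in place of 1.33, 2.01 and 1.70, and none of them was called. Without day 6 library 3 all 3 calls were lost too (adjusted p = 0.0679, 0.0531 and 0.1), and that of Bcl2 also without day 14 library 3 (0.0504) or day 6 library 1 (0.113). With totals Socs2 and Bcl2 were not called (0.0511 and 0.0684), and with the 6 control libraries alone Socs1 and Bcl2 were not (0.0666 and 0.127). Crlf2, a receptor for a related cytokine, was called (log2 fold change 0.67, adjusted p = 0.0254) but overlapped, and its call was lost without day 14 library 2, day 14 library 3, day 6 library 1 or day 6 library 2 (adjusted p of 0.0588 to 0.109), with totals or the GC and length correction (0.225 for both) and with the 6 control libraries alone (0.094). Mcl1, Jak1 and Stat5b fell by 0.54, 0.43 and 0.38 on the log2 scale.

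Lists of other cell types were read beside these genes, and their part in any result was not tested. Summed over the myeloid list, day 14 libraries had 33.5 to 169 CPM and day 6 libraries 87.2 to 205 CPM. Of 9 tested myeloid genes 5 fell (3 when day 14 library 2 was left out) and none rose, and the granule and neutrophil genes Elane, S100a8, S100a9 and Ngp had 0 reads in all 6 libraries. The T, NK and innate lymphoid list summed to 214 to 263 CPM on day 14 and 83.7 to 117 CPM on day 6, with 5 of 8 tested genes higher and 2 lower, while Cd8a, Cd8b1, Bcl11b, Ncr1 and Gzmb had 0 reads. Thy1, a surface protein of T cells that was a member of the stromal list too, had 43.4, 49.8 and 55.7 CPM on day 14 against 2.57, 1.54 and 1.55 CPM on day 6. Plasma cell genes summed to 376 to 619 CPM on day 14 and 273 to 300.0 CPM on day 6, with 4 of 7 higher (2 when day 14 library 3 or day 6 library 2 was left out).

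The other lists overlapped between the days in their sums, as the myeloid list did. Erythroid and megakaryocyte genes summed to 320 to 534 CPM on day 14 and 498 to 829 CPM on day 6, with 3 of 6 higher, and Hba-a1, Slc4a1, Ppbp and Car1 had 0 reads. None of 4 tested dendritic cell genes was called by edgeR, while 1 had an unadjusted p under 0.05 and DESeq2 called 0 higher and 0 lower (227 to 385 CPM on day 14 and 313 to 406 CPM on day 6), and of 12 stromal genes 1 rose and 1 fell (69.5 to 102 CPM on day 14 and 30.8 to 96.1 CPM on day 6). Interferon response genes summed to 1490, 189 and 176 CPM on day 14 and to 998, 915 and 1360 CPM on day 6. None of 18 was called by edgeR over all libraries, while 0 had an unadjusted p under 0.05 and DESeq2 called 0 higher and 0 lower, and 15 fell without day 14 library 1. Of 20 immediate early and heat shock genes, which summed to 5060 to 6520 CPM on day 14 and 4150 to 5120 CPM on day 6, 2 rose and 3 fell. Of these, 1 fell when day 14 library 2, day 14 library 3 or day 6 library 2 was left out, and 5 fell when day 6 library 1 was. With totals 7 fell and 0 rose, and with the GC and length correction 6 fell and 1 rose. Fos, an immediate early factor, was among the 3, at 11.2, 18.1 and 10.5 CPM on day 14 against 28.2, 50.9 and 51.5 CPM on day 6, and Hspa1b, an inducible chaperone that was not called, was at 68.7 CPM in day 6 library 3 against 9.85 and 16.3 CPM in the other 2 libraries of that day.

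Cholesterol and fatty acid synthesis was the metabolic list with the largest share of called genes with TMM, 21 of 27, but not with totals, where 13 of 27 were called against 14 of 21 in the citric acid cycle and 13 of 20 in fatty acid oxidation. Cells make cholesterol from acetyl-CoA by way of mevalonate and squalene, and fatty acids through Fasn and the desaturases, and the Srebf factors switch on the genes of both routes when sterols are scarce. Of 27 tested genes 19 rose and 2 fell, 10 and 1 of them by more than 2-fold, with a median log2 fold change of 0.76. With totals 11 rose and 2 fell with a median of 0.43, and without day 14 library 1, the highest in the summed level of the list at 6910 CPM, 14 rose and 2 fell with a median of 0.58. The other libraries summed to 5650 and 4350 CPM on day 14 and to 3240, 3640 and 2760 CPM on day 6.

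Fasn, fatty acid synthase, had 1175, 841 and 693 CPM in the day 14 libraries, against 347, 449.5 and 247 CPM in the day 6 libraries. Fdft1, squalene synthase, had 157, 115 and 85 CPM in the day 14 libraries, against 49.3, 50.7 and 43.2 CPM in the day 6 libraries. For both genes every day 14 library was above every day 6 library, and library 1 was the highest of its day (log2 fold change 1.38, SE 0.31, adjusted p = 0.00201 for Fasn, and 1.32, SE 0.22, adjusted p = 0.000163 for Fdft1). Fdft1 lies opposite to the abundant Ctsb, and how overlapping reads were assigned is not given. Along the route to cholesterol Mvk, Pmvk, Mvd, Fdps, Lss, Cyp51, Msmo1, Sc5d and Dhcr7 rose, with log2 fold changes between 0.48 and 1.27. Both regulators Srebf1 (0.85) and Srebf2 (0.60) also rose. Scd2, a desaturase, rose by 1.20. Its relative Scd1 had 52.7, 97.9 and 75 CPM in the day 14 libraries, against 0.168, 0 and 0.05 CPM in the day 6 libraries, with no overlap (log2 fold change 9.84, adjusted p = 3.18e-06, and 11.05 without day 6 library 1).

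Hmgcs1, which makes the precursor of mevalonate (mm10, chr13:119690379-119708260, plus strand), fell. It had 27.1, 15.3 and 8.09 CPM in the day 14 libraries, against 145, 170.4 and 114 CPM in the day 6 libraries, and every day 14 library was below every day 6 library (log2 fold change -3.08, SE 0.40, adjusted p = 3.51e-05). The other gene that fell was Tm7sf2, a sterol reductase (log2 fold change -0.90, adjusted p = 0.0095). Hmgcs1 had a log2 fold change of -3.17 between the days in BN1 cells and of -3.14 in AFFN1 cells. It shares bases with Gm48342 on the opposite strand. Zfp131 and the second Nnt model, each at 0 reads in every library of 1 day, are on chromosome 13 too. Whether the Hmgcs1 gene model was counted in the same way on both days was not tested.

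The bases before the start of 4 genes are shown because they rose with most called genes of their lists (Fasn, Mvd and Plk1) or fell against them (Hmgcs1). The sequences are RefSeq promoter windows of build GRCm38.p6, 250 bases up to the start and read along the gene, and capitals mark the letters CCAAT or, on the other strand, ATTGG, the box bound by NF-Y. Fasn is on chromosome 11 (minus strand, chr11:120824548-120824797), Mvd on chromosome 8 (minus strand, chr8:122443423-122443672), Hmgcs1 on chromosome 13 (plus strand, chr13:119690101-119690350) and Plk1 on chromosome 7 (plus strand, chr7:122159185-122159434).
Fasn: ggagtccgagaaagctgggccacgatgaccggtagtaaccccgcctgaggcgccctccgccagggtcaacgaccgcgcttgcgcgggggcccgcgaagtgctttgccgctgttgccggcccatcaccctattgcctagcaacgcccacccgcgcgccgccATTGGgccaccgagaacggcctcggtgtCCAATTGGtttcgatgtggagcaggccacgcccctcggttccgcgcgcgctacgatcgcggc
Mvd: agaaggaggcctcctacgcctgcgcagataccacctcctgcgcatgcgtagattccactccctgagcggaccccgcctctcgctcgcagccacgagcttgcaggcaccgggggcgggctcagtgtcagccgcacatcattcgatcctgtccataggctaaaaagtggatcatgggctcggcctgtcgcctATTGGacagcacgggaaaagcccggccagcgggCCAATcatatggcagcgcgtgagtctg
Hmgcs1: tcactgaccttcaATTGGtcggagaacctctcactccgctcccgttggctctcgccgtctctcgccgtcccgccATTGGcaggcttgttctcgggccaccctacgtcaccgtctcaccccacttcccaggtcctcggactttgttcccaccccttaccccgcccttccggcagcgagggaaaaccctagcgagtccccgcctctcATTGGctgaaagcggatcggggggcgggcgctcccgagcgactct
Plk1: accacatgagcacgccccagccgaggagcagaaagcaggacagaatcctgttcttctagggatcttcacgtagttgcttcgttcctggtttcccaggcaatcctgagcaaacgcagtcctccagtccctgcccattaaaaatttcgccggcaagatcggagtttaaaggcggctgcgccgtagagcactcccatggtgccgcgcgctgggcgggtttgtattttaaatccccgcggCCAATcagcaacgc
The box was found 3 times in the Fasn window (2 of them sharing letters), 2 times in that of Mvd, 3 times in that of Hmgcs1 and 1 time in that of Plk1, while 33.8% of all 32851 promoter windows of this length hold at least 1. The letters TCACNCCAC, a form of the sterol element, occur in 1.05% of all windows on either strand and in that of Hmgcs1 as TCACCCCAC, not in the other 3. For 15 of the 21 called genes of the list a window was at hand, too few to give a share for the list.

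**Figure D3:**
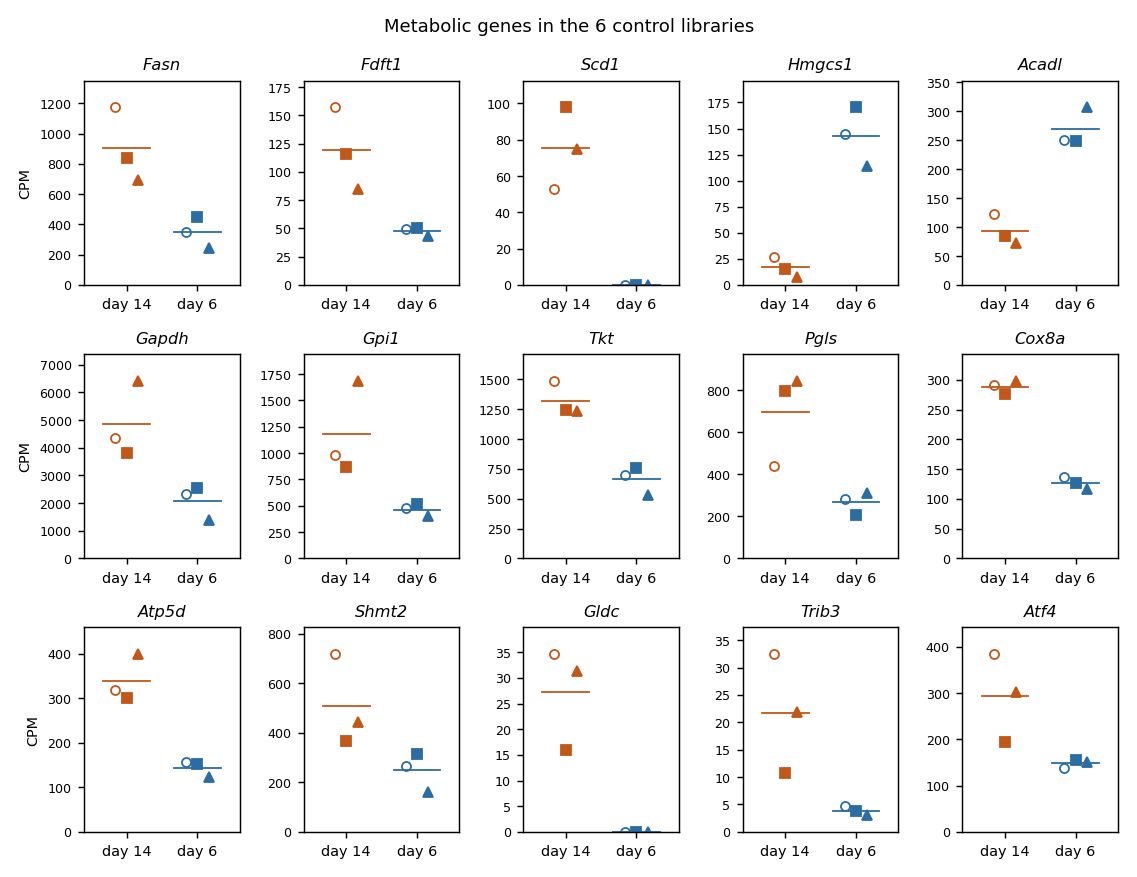
Levels in CPM (vertical axes, from 0) of 15 metabolic genes in control cells, with day 14 on the left and day 6 on the right of each panel; circles, squares and triangles are libraries 1, 2 and 3 and lines are means. Hmgcs1 and Acadl lie below the day 6 libraries on day 14, and the other genes lie above them.

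Glycolysis, which turns glucose into pyruvate, showed 4 genes higher and 1 lower of 17, with a median of 0.48 (0.16 with totals). Over all tested genes 22.3% were higher and 21.2% lower. Gapdh, which has many processed pseudogene copies, had 4350.3, 3817 and 6423 CPM in the day 14 libraries, against 2312, 2549.6 and 1383 CPM in the day 6 libraries. Gpi1, the glucose phosphate isomerase, had 980.4, 864 and 1689 CPM in the day 14 libraries, against 481, 514 and 399 CPM in the day 6 libraries. Both were without overlap and highest in day 14 library 3, and both were lowest in day 6 library 3 (log2 fold changes 1.22 and 1.34, adjusted p = 0.000419 and 0.000373). Slc2a1, a glucose transporter, rose by 0.48, and Aldoc, an aldolase, rose at a low level but lost its call without day 14 library 3 (log2 fold change 1.498 in place of 2.56, adjusted p = 0.0773). Pfkm, a phosphofructokinase, was the gene that fell, at 13.2, 13.2 and 16.3 CPM in the day 14 libraries, against 27.9, 26.8 and 31 CPM in the day 6 libraries. Aldoa, Tpi1, Eno1, Pkm and Ldha, further enzymes of the route, missed the threshold with log2 fold changes of 1.30, 1.04, 1.07, 0.89 and 0.62. Summed over the list, day 14 libraries had 11200, 8690 and 20000.0 CPM and day 6 libraries 6950, 8380 and 4350 CPM. None of 16 hypoxia response genes was called by edgeR over all libraries (median 0.10, and -0.24 with totals, where 5 fell), while 1 had an unadjusted p under 0.05 and DESeq2 called 0 higher and 1 lower.

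Of the 7 genes of the pentose phosphate pathway, which supplies NADPH and ribose, Pgls, Tkt and Rpia rose and none fell. Tkt, transketolase, had 1489, 1244 and 1231 CPM in the day 14 libraries, against 702, 753 and 531 CPM in the day 6 libraries (log2 fold change 1.00, adjusted p = 0.000153), without overlap. The median of the list was 0.24, and -0.10 with totals. Pgls overlaps the abundant Fam129c on the same strand. The citric acid cycle was divided, with 7 genes higher and 5 lower of 21 and a median of -0.14. Citrate synthase (Cs), Ogdh and Mdh2 were higher, with log2 fold changes of 0.68, 0.65 and 0.58, and Dld, Sucla2, Fh1, Dlat and Sdha were lower, between -0.57 and -0.28. Mdh2 was not called with totals (adjusted p = 0.104). None of these differences reached 2-fold, and with totals 2 genes were higher and 12 lower. The count of lower genes was 3 without day 6 library 1 or without day 6 library 2.

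Nuclear genes of oxidative phosphorylation, which code for the respiratory complexes and the ATP synthase, showed 25 higher and 9 lower of 59 with a median of 0.23. This direction depended on the scaling, since with totals the median was -0.11 and 9 were higher and 23 lower. Over all tested genes the median with totals was -0.36. With TMM, 4 genes were lower when day 14 library 2, day 6 library 1 or day 6 library 2 was left out, and 23 to 25 were then higher. Atp5d, the delta subunit of the ATP synthase, had 319, 299 and 399 CPM in the day 14 libraries, against 156, 152 and 124 CPM in the day 6 libraries. Cox8a, a subunit of cytochrome oxidase, had 291, 276 and 299 CPM in the day 14 libraries, against 137, 126 and 116 CPM in the day 6 libraries. They were the 2 genes of the list that passed 2-fold, and remained higher with totals (log2 fold changes of 0.89 and 0.85). Subunits of 1 complex moved both ways: of the ATP synthase Atp5l and Atp5g1 rose (0.81 and 0.72) while Atp5g3 and Atp5e fell (-0.55 and -0.36), and of complex I Ndufb7 and Ndufa6 rose (0.64 and 0.74) while Ndufs1 and Ndufc1 fell (-0.52 each). The 13 mitochondrially encoded protein genes, which were set aside, summed to 58300, 72400 and 99100 CPM on day 14 and to 21900, 24300 and 20500 CPM on day 6.

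In fatty acid oxidation 8 of 20 genes fell and 4 rose, with a median of -0.16, and with totals 12 fell and 1 rose, with a median of -0.49. Acadl, the long-chain acyl-CoA dehydrogenase, had 123, 84.3 and 73.2 CPM in the day 14 libraries, against 251, 249 and 307 CPM in the day 6 libraries. All day 14 libraries were below all day 6 libraries (log2 fold change -1.52, SE 0.22, adjusted p = 5.86e-05). The electron transfer genes Etfa, Etfb and Etfdh fell by 0.48, 0.54 and 0.40, and Acadvl fell by 0.82 but lost its call without day 14 library 1, day 14 library 2 or day 6 library 3. Hadha, Hadh and Cpt2 rose by 0.50, 0.38 and 0.51. Acsf2, an acyl-CoA synthetase, rose 8.11-fold, at 12, 9.02 and 22.2 CPM in the day 14 libraries, against 1.9, 1.41 and 1.95 CPM in the day 6 libraries.

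Serine, glycine and one-carbon metabolism had 4 genes higher and 1 lower of 15, and 2 higher and 1 lower when day 14 library 1 or day 6 library 3 was left out. Gldc, the glycine decarboxylase of the glycine cleavage system, had 1307 reads over the day 14 libraries and 1 over the day 6 libraries, a ratio of 1450 (95% counting interval 260 to 57500). It stood at 34.6, 15.9 and 31.4 CPM in the day 14 libraries and at 0, 0.0642 and 0 CPM in the day 6 libraries, and its fitted log2 fold change was 11.87 without day 6 library 2 in place of 10.03. Amt, its partner in the same system, fell, with no more than 0.332 CPM on day 14 and 1.41 to 1.65 CPM on day 6 (adjusted p = 0.00138). Shmt2, the mitochondrial serine hydroxymethyltransferase, had 718, 368 and 443 CPM in the day 14 libraries, against 266, 317 and 163 CPM in the day 6 libraries, and its call was lost without day 14 library 1 or day 6 library 3 (adjusted p = 0.0884 and 0.0711), with totals (0.0757) or with the GC and length correction (0.0719). The median of the list was 0.15, and -0.18 with totals, where 2 genes were higher and 2 lower.

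Of 23 genes of the amino acid response and the tRNA synthetases, 7 rose and none fell (median 0.32, and -0.01 with totals, where 4 rose and 1 fell), and 4 rose when day 14 library 1 or day 6 library 3 was left out. Atf4, the factor that drives this response, had 384, 193 and 302 CPM in the day 14 libraries, against 138, 155 and 151 CPM in the day 6 libraries. Trib3, a pseudokinase induced by Atf4, had 32.5, 10.7 and 21.9 CPM in the day 14 libraries, against 4.76, 3.85 and 3.05 CPM in the day 6 libraries. Both were highest in day 14 library 1 and lowest for day 14 in library 2, without overlap with day 6 (log2 fold changes 0.99 and 2.48, adjusted p = 0.0047 and 2.67e-05). Sesn2, a sestrin, rose 2.62-fold, and Chac1, a glutathione-degrading enzyme, had 150 reads on day 14 and 3 on day 6, a ratio of 55.6 (18.7 to 273). The fitted log2 fold change of Chac1 was 6.55 without day 6 library 2 and 5.02 without day 6 library 3. Nucleotide synthesis showed 1 call of 20, Impdh1 (log2 fold change -0.33, adjusted p = 0.0439), which was lost without day 14 library 1, day 14 library 3, day 6 library 1 or day 6 library 3, with relative log expression scaling (adjusted p = 0.0513), with no read filter (0.0852) and with the 6 control libraries alone (0.127). With totals 7 genes of that list were lower and 0 higher, with a median of -0.41 in place of -0.08. In ribosome biogenesis 5 of 23 rose and 0 fell, beside 22.3% and 21.2% of all tested genes. The 5 were Npm1, Pes1, Fbl, Pprc1 and Nhp2, with log2 fold changes of 0.66 to 0.76. The median of that list was 0.29, and -0.04 with totals, where 1 gene was higher and 1 lower and Nhp2, Fbl and Pprc1 were not called (adjusted p = 0.106, 0.0873 and 0.142). Nhp2 was not called with the GC and length correction either (0.079). Leaving out day 14 library 1, 3 rose with a median of 0.07, leaving out day 6 library 3 it was 3 with a median of 0.11, and leaving out day 14 library 2 it was 8.

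Myc, the factor that drives ribosome and metabolic genes in dividing cells, had 635, 204 and 371 CPM in the day 14 libraries, against 226, 249 and 172 CPM in the day 6 libraries. Day 14 library 2 lay inside the day 6 range, and Myc was not called (log2 fold change 0.90, adjusted p = 0.0898), though it was called without that library (adjusted p = 0.0246) and by DESeq2 (0.0348).

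Replication and mitosis genes changed by small amounts in both directions. Of 36 replication and S phase genes 12 rose and 4 fell (median 0.19), and of 36 mitosis and G2 genes 11 rose and 4 fell (median 0.12), with 1 gene in each list past 2-fold. With totals the medians were -0.15 and -0.21, and the calls became 3 higher and 12 lower for replication and 2 higher and 14 lower for mitosis. Over all 12127 tested genes the calls with totals were 1406 higher and 4949 lower. The direction of both lists thus depended on the scaling, but both medians were above that of all tested genes with TMM (-0.03) and with totals (-0.36). The mitosis count was 6 higher and 9 lower when day 14 library 2 was left out, 6 and 4 without day 6 library 3, 10 and 2 without day 14 library 3, and 11 and 2 without day 6 library 1, and 11 and 1 with the GC and length correction. The replication count was 8 higher and 5 lower without day 6 library 3. Mki67, a marker of dividing cells, had 552, 1393 and 1133 CPM in the day 14 libraries, against 929, 980.5 and 847 CPM in the day 6 libraries. Day 14 library 1 was the lowest and the other 2 day 14 libraries were the highest of the 6, and Mki67 was not called (log2 fold change 0.16, adjusted p = 0.696). Summed over the mitosis list, day 14 libraries had 5760, 8860 and 7290 CPM and day 6 libraries 7150, 6640 and 5970 CPM.

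Ube2c and Cdt1 rose in both scalings. Ube2c, the ubiquitin-conjugating enzyme of the anaphase-promoting complex, had 240.2, 341 and 398 CPM in the day 14 libraries, against 146, 109 and 117 CPM in the day 6 libraries. Cdt1, which loads the replicative helicase, had 177, 207 and 185 CPM in the day 14 libraries, against 106, 86.7 and 85.1 CPM in the day 6 libraries. Both were without overlap (log2 fold changes 1.40 and 1.04, adjusted p = 4.45e-05 and 0.000196), and with totals they were 1.05 and 0.70. The helicase subunits Mcm2, Mcm3 and Mcm7 rose by 0.63, 0.54 and 0.45. Orc1, of the origin recognition complex, had 22.2, 24.8 and 21.8 CPM in the day 14 libraries, against 38.3, 42 and 35.2 CPM in the day 6 libraries. It fell, as did Prim1, a primase subunit, and Ccne2, a cyclin of S phase entry (log2 fold changes -0.75, -0.68 and -0.48). In mitosis Plk1, Nusap1 and Bub3 rose by 0.83, 0.83 and 0.59, whereas Ccnb1, Bub1, Cenpa and Ndc80 fell by 0.52, 0.52, 0.55 and 0.49. With totals Plk1 and Bub3 were not called (log2 fold changes 0.50 and 0.25, adjusted p = 0.0544 and 0.0762). Hist1h2ap, a histone gene, had 322, 517 and 937 CPM in the day 14 libraries, against 1.74, 2.06 and 1.55 CPM in the day 6 libraries, but it has near-identical copies, among which the counting may split reads, and an mRNA library kit recovers histone transcripts in part.

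**Figure D4:**
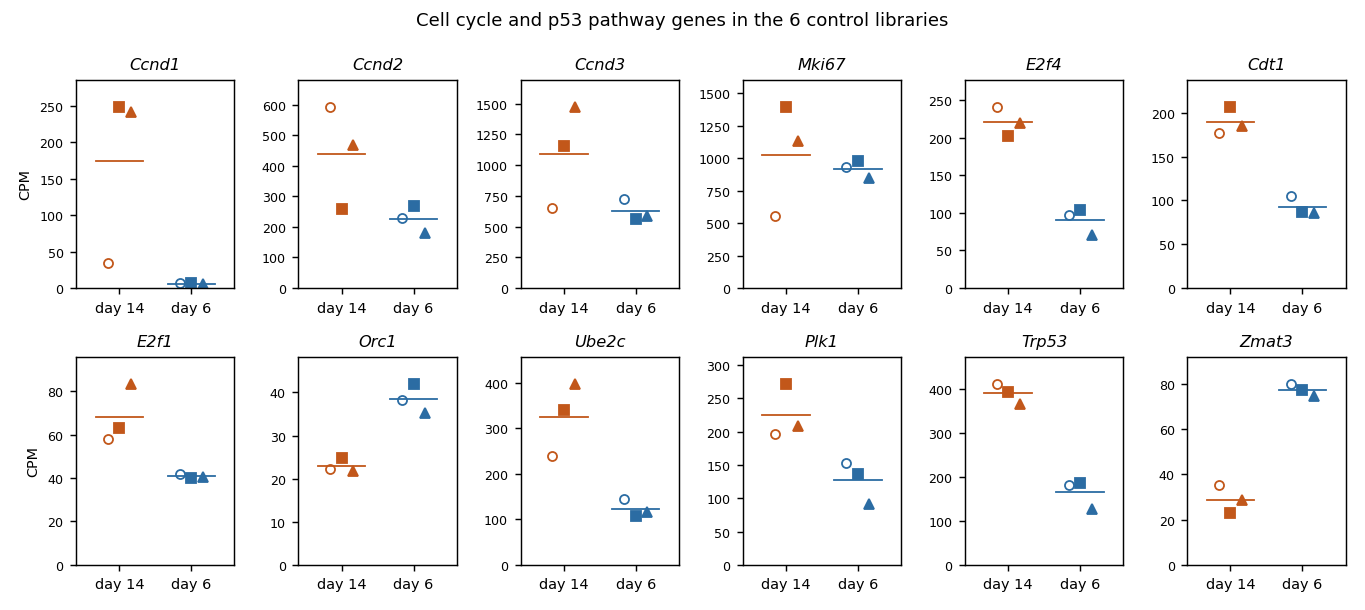
Levels in CPM (vertical axes, from 0) of 12 cell cycle and p53 pathway genes in control cells, with day 14 on the left and day 6 on the right of each panel; circles, squares and triangles are libraries 1, 2 and 3 and lines are means. Ccnd1 is high in day 14 libraries 2 and 3 and lower in library 1, Ccnd2, Ccnd3 and Mki67 overlap between days, and Orc1 and Zmat3 are lower on day 14.

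Ccnd1, a D-type cyclin little used by B cells (mm10, chr7:144929931-144939925, minus strand), had 34.4, 248 and 242 CPM in the day 14 libraries, against 6.55, 6.55 and 5.06 CPM in the day 6 libraries. Each day 14 library was above all day 6 libraries, library 1 being the lowest of its day (log2 fold change 4.85, SE 0.64, adjusted p = 5.02e-05). Ccnd2, a D-type cyclin of B progenitors, had 592, 259 and 468 CPM in the day 14 libraries, against 230.4, 267 and 180.0 CPM in the day 6 libraries. Ccnd3, the other D-type cyclin of these cells, had 654, 1153 and 1471 CPM in the day 14 libraries, against 723, 565 and 588 CPM in the day 6 libraries. Neither was called (adjusted p = 0.0898 and 0.0755). Among the day 14 libraries, library 1 had the highest level of Ccnd2 and the lowest of Ccnd3. Library 2, the lowest of that day for Ccnd2, was not the highest for Ccnd3. Ccnd2 was called without day 14 library 2 (adjusted p = 0.0459) and Ccnd3 without day 14 library 1 (0.0244). DESeq2 called both (adjusted p = 0.032 and 0.0334), and Ccnd2 was also called with the 6 control libraries alone (0.0406) and with the GC and length correction (0.0472).

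Of 22 tested cyclins, kinases and inhibitors 6 rose and 1 fell (median 0.18, and -0.16 with totals, where 5 rose and 4 fell), and with the GC and length correction 10 rose and 1 fell. E2f4, an E2F factor of resting cells, had 241, 203 and 220.0 CPM in the day 14 libraries, against 97.2, 103 and 70.7 CPM in the day 6 libraries, without overlap (log2 fold change 1.29, adjusted p = 4.54e-06). Cdk4, the kinase partner of the D cyclins, rose by 0.72. Btg2, an antiproliferative gene, rose 2.19-fold but lost its call without day 14 library 3 or day 6 library 2. Cdkn1c, a kinase inhibitor, had 25 reads on day 14 and 0 on day 6, at least 9.27-fold higher, and had no test with the 6 control libraries alone. Cdkn2a, which encodes an inhibitor of Cdk4 and the p53 activator Arf, fell, at 23.8, 14.9 and 31 CPM on day 14 against 53.9, 41.3 and 46.6 CPM on day 6 (log2 fold change -1.03, adjusted p = 0.005).

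Trp53 itself had 411, 392 and 364 CPM in the day 14 libraries, against 181, 186 and 127 CPM in the day 6 libraries. Every day 14 library was above every day 6 library (log2 fold change 1.24, SE 0.13, adjusted p = 3.51e-06). Of 19 genes of the p53 pathway 3 were higher, Trp53 included, and 2 were lower (median -0.16), against 2 higher and 10 lower with totals (median -0.50) and 2 higher and 4 lower with the 6 control libraries alone or the GC and length correction, and 2 were higher and 5 lower when day 14 library 2 was left out. Over all tested genes 22.3% were higher and 21.2% lower with TMM. Zmat3, an RNA-binding target, had 35.1, 22.7 and 28.7 CPM in the day 14 libraries, against 79.9, 77.2 and 74.7 CPM in the day 6 libraries, and fell (log2 fold change -1.42, adjusted p = 0.00199). Pmaip1, a death-promoting target, fell 2.21-fold, and Tnfrsf10b, a death receptor, rose 4.22-fold but lost its call without day 6 library 1. Mdm2 and Cdkn1a, the best known targets, missed the threshold, at log2 fold changes of -0.13 and -0.17.

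Some large differences lay outside these lists. Crip1, a LIM domain protein, had 161, 157 and 156 CPM in the day 14 libraries, against 0, 0.0642 and 0.2 CPM in the day 6 libraries (adjusted p = 1.47e-09). Cd2, an adhesion receptor that appears on mouse B cells during the pre-B stage, had 567 reads over the day 14 libraries and 0 over the day 6 libraries, at least 210-fold higher, and its day 14 libraries held 16, 3.84 and 15.9 CPM. Prr13, a proline-rich protein, had 2193 reads on day 14 and 3 on day 6, a ratio of 813 (95% counting interval 278 to 3950). All 3 were chosen among called genes without overlap between the days, so their calls and the lack of overlap follow from that choice. None of them lost its call without 1 control library. Without day 6 library 3 the log2 fold change of Crip1 was 12.05 in place of 10.62.

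Among the falls, Ndnf, a secreted neurotrophic factor, had 1 read over the day 14 libraries and 1786 over the day 6 libraries, a day 6 to day 14 ratio of 1610 (288 to 63500). Its fitted log2 fold change of -10.15 was -12.09 without day 14 library 1 and -9.50 without day 6 library 3. Peg10, a gene derived from a retrotransposon, had 0.302, 0.244 and 0.398 CPM in the day 14 libraries, against 16.7, 10.8 and 66 CPM in the day 6 libraries, and without day 6 library 3 its log2 fold change was -5.43 in place of -6.61. Ppp1r9a, the scaffold protein neurabin, Snx7 and Snx22, sorting nexins, had 2, 3 and 3 reads on day 14 and 444, 387 and 285 on day 6, with day 6 to day 14 ratios of 200 (54.9 to 1650), 116 (39.4 to 565) and 85.4 (28.9 to 417). Their fitted log2 fold changes were -10.10 for Ppp1r9a without day 14 library 1, and -7.61 for Snx7 and -9.49 for Snx22 without day 14 library 3, in place of -7.36, -6.72 and -6.22. Snx22 lies opposite to the abundant Ppib. Noc2l, a nucleolar protein (mm10, chr4:156236010-156247616, plus strand), had 3.08, 2.86 and 2.45 CPM in the day 14 libraries, against 210.1, 252 and 151 CPM in the day 6 libraries, and its log2 fold change was -6.18 in control cells and -6.08 in BN1 and in AFFN1 cells. Noc2l lies opposite to Samd11. Taf1a, a subunit of the polymerase I factor, had 0.121, 0.122 and 0.199 CPM in the day 14 libraries, against 9.29, 9.44 and 10.7 CPM in the day 6 libraries, and is the neighbour of Mia3, which was set aside for its 0 reads on day 14. Tmem254c, which has near-identical copies, had 0, 0 and 0.531 CPM in the day 14 libraries, against 11.3, 11.9 and 18.8 CPM in the day 6 libraries. Without day 14 library 3 its log2 fold change was -10.91 in place of -6.32. Whether these gene models were counted in the same way on both days was not tested.

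The same days were compared in the fusion cells, which were sampled in the same sets, so that day and experiment cannot be told apart there either. BN1 cells had 5825 called genes (48.0%), with 24.3% of tested genes higher on day 14 and 23.8% lower, and AFFN1 cells 5769 (47.6%), with 24.3% higher and 23.3% lower. Of the 5275 genes called in control cells, 3840 were called in the same direction in BN1 cells (72.8% of the control calls and 65.9% of the BN1 calls) and 4108 in AFFN1 cells (77.9% of the control calls and 71.2% of the AFFN1 calls). The difference of the day differences itself was called for 354 genes (2.92%) between BN1 and control cells, 1.90% of tested genes in the upward and 1.01% in the downward direction. Between AFFN1 and control cells it was called for 169 (1.39%), 0.684% upward and 0.709% downward. Called there or not, 4964 of the 5275 genes had the same direction in BN1 cells and 5078 in AFFN1 cells. Beside that background, all 21 called genes of cholesterol and fatty acid synthesis had the same direction in BN1 and in AFFN1 cells. Of these, 17 and 19 were called there. Of the 13 B-lineage transcription factors that rose and the 1 that fell, 10 and 11 were called in the same direction. No list was tested against the shares over all genes.

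Ccnd1 departed from this in both fusions. It averaged 1.21 and 2.60 CPM on day 14 and day 6 in BN1 cells, 1.90 and 3.23 CPM in AFFN1 cells and 175 and 6.05 CPM in control cells. The day difference in BN1 cells minus that in control cells was -5.96 and that in AFFN1 cells minus control cells was -5.61 on the log2 scale (adjusted p = 0.00233 and 0.00572). Kit, lower on day 14 in control cells, averaged 242 and 159 CPM on day 14 and day 6 in BN1 cells, and this difference from control cells was called (1.48, adjusted p = 0.00746). Cxcr5 averaged 55.7 CPM on day 14 in BN1 cells and 12.7 CPM on day 6, a smaller day difference than in control cells (-4.22, adjusted p = 0.0038). Gldc averaged 0.104 and 0.219 CPM in AFFN1 cells on day 14 and day 6, against 27.3 and 0.0214 CPM in control cells. These contrasts share the control libraries, by whose day difference Ccnd1, Cxcr5 and Gldc had been chosen.

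**Figure D5:**
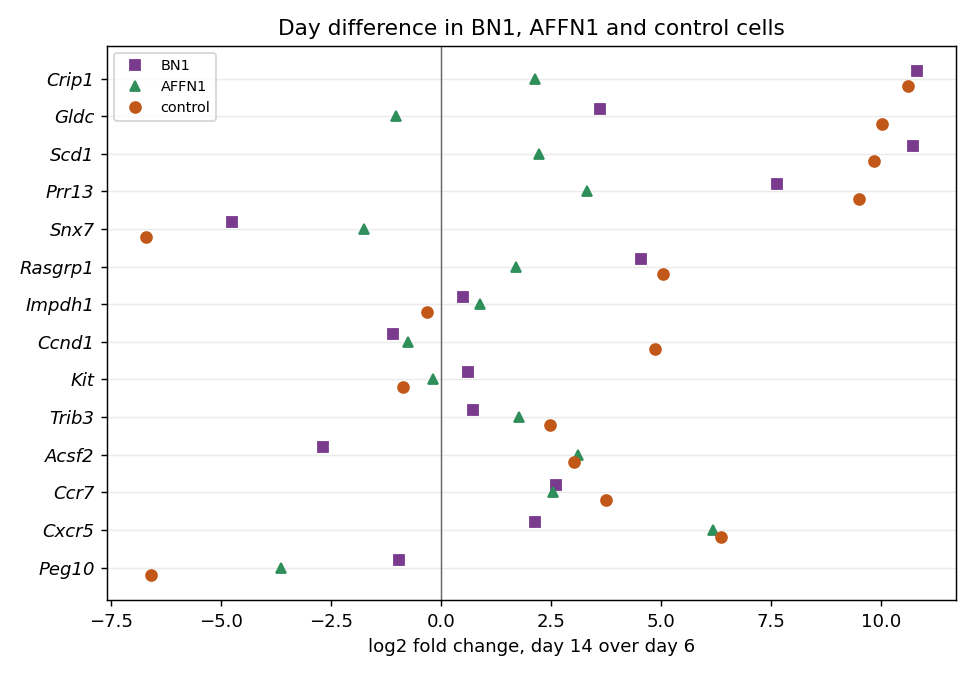
Log2 fold changes of day 14 over day 6 (horizontal axis) for 14 named genes in BN1 cells (squares), AFFN1 cells (triangles) and control cells (circles). These are the named genes whose day difference in BN1 or AFFN1 cells differed from that in control cells; Ccnd1 is at 4.85 in control cells and below 0 in both fusions.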

How the data were processed

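RNA of 18 samples of sorted mouse bone marrow cells was sequenced from TruSeq Stranded mRNA libraries, per the labels' protocols, and the authors deposited expected counts per gene (RSEM estimates that can hold fractions). The tools STAR, RSEM and DESeq2 and the build mm10 are named per the submitters' processing notes. Their versions and settings, the annotation and the strand setting were not given in the sources used here. Before testing, values were rounded to whole numbers. The 6 groups of 3 libraries were fitted together with edgeR 4.0.16 (limma 3.58.1, R 4.3.3): genes filtered with filterByExpr, TMM scaling, robust quasi-likelihood fit of group means, and Benjamini-Hochberg adjustment of p-values over the whole table of tested genes, before genes were set aside. The threshold for a call was an adjusted p under 0.05. Day differences between fusion and control cells were compared as interaction contrasts.

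The members of the comparison, the gene lists and the tests were chosen with earlier results of these data known. Genes named were the 8 that rose most and the 8 that fell most among called genes (on the day of higher level a mean of 5 CPM or more, no overlap of the days, no clone or model name), up to 4 called members with the largest change in each list, and genes always named (Ebf1, Pax5, Il7r, Flt3, Kit, Rag1, Rag2, Dntt, Myc, Ccnd2, Ccnd3 and Mki67). Some genes that this rule names are not reported here. Ptprc and the further list members named beside them, and the 4 promoters printed, were chosen after their values were seen. A fold against a group at 0 reads was taken against a floor of 3 reads over its libraries, and groups with 1 to 3 reads were given as a ratio of counts with an exact 95% interval; both cover counting error only, and library totals were 14.2 to 18.4 in units of 1000000 counts. Coordinates, gene lengths and GC content came from GENCODE M21 of mm10. Alternatives were DESeq2 1.42.0, other scaling, no filter, the 6 control libraries alone, a replicate block, a 1.5-fold threshold, other orders of setting genes aside and leaving out each library; a loess correction for GC content and length was chosen after seeing the data. The fit was tested on simulated data with known changes. Figures were drawn with Python 3.11.15 and matplotlib 3.10.9.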

Additional observations from a re-analysis of the deposited data

Results flagged for a closer look

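For 14 named genes the day difference in fusion cells differed from that in control cells in edgeR's interaction test, with Benjamini-Hochberg adjustment. All values are the log2 day difference (day 14 over day 6) of the fusion cells minus that of control cells. All of these genes but Kit were named by the size of their day difference in control cells, and the contrast subtracts that same difference. Their calls therefore do not stand apart from how the genes were chosen. Of the 105 named genes 8 were called for BN1 and 8 for AFFN1, beside 2.92% and 1.39% of all tested genes.

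Among genes higher on day 14 in control cells, AFFN1 cells differed for Crip1 (-8.48, adjusted p = 2.26e-06), Gldc (-11.05, adjusted p = 0.00442), Scd1 (-7.62, adjusted p = 0.0038), Prr13 (-6.17, adjusted p = 0.00144) and Rasgrp1 (-3.35, adjusted p = 0.0408). The means behind Crip1 were 89.2 and 20.3 CPM on day 14 and day 6 in AFFN1 cells, against 158 and 0.0881 CPM in control cells. Those behind Scd1 were 11.9 and 2.54 CPM on day 14 and day 6 in AFFN1 cells, against 75.2 and 0.073 CPM in control cells.

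BN1 cells differed for Cxcr5 (-4.22, adjusted p = 0.0038), Ccr7 (-1.13, adjusted p = 0.0462), Acsf2 (-5.71, adjusted p = 0.00629) and Trib3 (-1.75, adjusted p = 0.0443). Acsf2 averaged 13.1 and 84.8 CPM on day 14 and day 6 in BN1 cells, against 14.4 and 1.76 CPM in control cells, so that the direction was the opposite one.

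Ccnd1 differed in both fusions, at -5.96 in BN1 cells (adjusted p = 0.00233) and -5.61 in AFFN1 cells (adjusted p = 0.00572). Impdh1, lower on day 14 in control cells, differed in both as well, at 0.83 in BN1 cells (adjusted p = 0.0143) and 1.20 in AFFN1 cells (adjusted p = 0.00144). It averaged 589 and 415 CPM on day 14 and day 6 in BN1 cells, 578 and 316 CPM in AFFN1 cells and 477 and 600.1 CPM in control cells.

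Of the genes that were lower on day 14 in control cells, Kit (1.48, adjusted p = 0.00746) and Peg10 (5.64, adjusted p = 0.00274) differed in BN1 cells and Snx7 (4.95, adjusted p = 0.00138) in AFFN1 cells. Peg10 averaged 31.2 CPM on day 6 in control cells, of which library 3 had 66 CPM and libraries 1 and 2 had 16.7 and 10.8 CPM.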

How the results depend on the processing

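The 5275 genes called between day 14 and day 6 control cells became 4077 with the 6 control libraries alone and 3174 with a replicate block added to these. The count was 1765 when a difference beyond 1.5-fold was asked for, and 4523 to 5042 without 1 control library. The 354 genes called between the BN1 and control day differences became 579 with DESeq2 and 252 to 368 without 1 library, and the 169 for AFFN1 became 323 with DESeq2 and 104 to 202 without 1 library. With totals in place of TMM, 22.1% of called genes were higher on day 14. The replicate block over 18 libraries gave 5401, 390 and 189 calls. The labels do not pair the days by replicate number. Deviations of control libraries with the same number had correlations of -0.0698, -0.2196 and 0.0955 and those with different numbers of -0.1835 to 0.2471. So few libraries cannot exclude a pairing. Within day 14, libraries with the same number share a name prefix across control, BN1 and AFFN1 cells. In addition, 3 uncalled genes changed sign. Without 1 control library the log2 fold change ran from -0.35 to 0.18 for Il7r (0.13 without day 6 library 3, and 0.16 with the GC and length correction), from -1.41 to 0.34 for Dntt and from -0.13 to 0.46 for Mki67 (-0.18 with totals). The cause was not tested. Of the values of named genes under alternatives, 1453 kept direction and side of the threshold, 89 lost the call and 13 gained it, and 83 of the 98 called named genes were called without each control library. Differences in genes below the read filter, such as Ms4a1, were not detectable at this depth.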
